A study of Mus musculus with 15 samples.

Results

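The genes described here are 8 members of the complex that spans the synapse: the neurexins *Nrxn2* and *Nrxn3*, the neuroligins *Nlgn1*, *Nlgn2* and *Nlgn3*, and the Shank scaffolds *Shank1*, *Shank2* and *Shank3*. The rule that picks them is their gene symbol and uses no measured value. The genes were, however, chosen with earlier results of these data known. They are 8 of the 23235 genes in the RNA-seq table of mouse cortex. Levels are in FPKM, sequenced fragments scaled by transcript length and by library depth. The 10297 genes whose 4 group values averaged 1 FPKM or more were compared, and all 8 were among them. Other members of the 3 families were not analysed here.

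Neurexins are presynaptic adhesion proteins whose extracellular part reaches across the synaptic cleft and binds postsynaptic partners, the neuroligins among them. Neuroligins in turn hold scaffold and receptor proteins on the postsynaptic side, where Shank proteins form a deep layer of the density under excitatory synapses and link receptor complexes to Homer proteins and actin. Variants in genes of all 3 families are known from autism and related neurodevelopmental conditions.

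The study asked what the long non-coding RNA *116HG*, made from the paternal *Snord116* locus, does in the brain. Adult WT mice (C57BL/6J) were compared with Snord116del (+/-) mice of the strain B6(Cg)-Snord116tm1.1Uta/J, which carry the deletion on the paternal chromosome and so also lack the snoRNAs of the locus. RNA-seq was run on the cortex of males killed at Zeitgeber time (Zt) +6, in the light, or Zt +16, in the dark: 3 WT and 2 Snord116del mice at Zt +6, and 2 of each genotype at Zt +16. Chromatin isolation by RNA purification (ChIRP), in which biotinylated oligos pull down an RNA with the DNA bound to it, was run on adult brain with *116HG* oligos (2 WT libraries and 1 Snord116del library) and with non-specific control (NSC) oligos (1 library of each genotype). Both genotypes came from matings of heterozygous males with WT females. The RNA-seq tissue is a mixture of all cortical cells, whereas ChIRP used a hemisphere of the brain.

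The RNA-seq table gives 1 value per group and gene, so the spread between mice cannot be seen, no difference between groups could be tested, and no p-value is given. A gene was counted as higher or lower past a 1.5-fold difference of FPKM + 1, provided that 1 FPKM was reached in the higher group. The scale of the groups differed: the FPKM values summed to 159300 (WT) and 160199 (Snord116del) at Zt +6, and to 216422 and 342188 at Zt +16. *Snord116* itself was listed at 0 FPKM in all 4 groups and checks no label, while *Ipw*, a non-coding gene of the same imprinted locus, was at 21.6 FPKM (WT) and 3.40 (Snord116del) at Zt +6. At Zt +16 its values were 3.17 and 1.82 FPKM. The labels of 3 Zt +6 mice (both Snord116del and 1 of the 3 WT) cite another version of the RNA-seq table than the remaining 6 mice do. Whether this marks a batch is not stated, and both Snord116del Zt +6 mice are on 1 side of it. The table lists each time of day as its own pair of genotypes, and whether both pairs were normalised together is not given.

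The sequences of the replicate 2 peaks and of peaks in the controls are shown first, because few of them lie at these genes and the results refer back to each. Replicate 2 of WT *116HG* had 8 peaks at the 8 genes, all in introns. They follow from 5′ to 3′ on the plus strand of NCBIM37 (the mm9 assembly), with the longest run of A or T in capitals, or the AG repeat in the peak of *Nlgn1* that has no such run, or no capitals for the peak of *Shank3*, which has neither.
*Nrxn2*, chr19:6438822-6438885: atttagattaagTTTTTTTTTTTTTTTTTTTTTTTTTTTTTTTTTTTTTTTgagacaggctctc
*Nrxn3*, chr12:90500009-90500068: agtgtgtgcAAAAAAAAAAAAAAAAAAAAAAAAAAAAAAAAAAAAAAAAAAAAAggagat
*Nrxn3*, chr12:90707480-90707554: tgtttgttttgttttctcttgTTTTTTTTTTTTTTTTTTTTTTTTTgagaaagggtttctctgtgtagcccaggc
*Nrxn3*, chr12:91492829-91492895: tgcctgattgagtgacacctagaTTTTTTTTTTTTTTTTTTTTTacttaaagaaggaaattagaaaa
*Nlgn1*, chr3:25581198-25581295: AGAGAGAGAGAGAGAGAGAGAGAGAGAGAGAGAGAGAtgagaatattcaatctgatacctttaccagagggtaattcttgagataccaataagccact
*Nlgn1*, chr3:25764571-25764639: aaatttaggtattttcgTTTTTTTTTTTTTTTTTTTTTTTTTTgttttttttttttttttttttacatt
*Nlgn1*, chr3:25779082-25779153: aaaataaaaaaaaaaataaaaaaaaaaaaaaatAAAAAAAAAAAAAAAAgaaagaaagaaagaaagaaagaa
*Shank3*, chr15:89339085-89339245: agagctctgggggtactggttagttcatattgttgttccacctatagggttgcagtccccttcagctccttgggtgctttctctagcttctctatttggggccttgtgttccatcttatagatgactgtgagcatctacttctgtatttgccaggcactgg
Of these 8 peaks, 6 hold a run of at least 15 A or, read on the other strand, T. The share with such a run was 38.3% over all replicate 2 peaks and 0.638% over windows of the same widths 5 kb away. The runs were 16 to 45 bases long. The middle 32 bases of the peaks in *Nrxn2* and of the poly-A peak in *Nrxn3* occur 68123 times each in the genome, counting both strands, and 6 of the 8 peaks have a middle that occurs more than once. The median GC content of the 8 peaks was 19.8%.

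In the Snord116del libraries a peak in an intron of *Nrxn3* was shared by the *116HG* and the NSC oligos. The 300 bases shown lie in their overlap of 405 bases on the plus strand, and capitals mark both copies of the longest exact repeat inside it, a unit of 55 bases.
*Nrxn3*, chr12:91320453-91320752: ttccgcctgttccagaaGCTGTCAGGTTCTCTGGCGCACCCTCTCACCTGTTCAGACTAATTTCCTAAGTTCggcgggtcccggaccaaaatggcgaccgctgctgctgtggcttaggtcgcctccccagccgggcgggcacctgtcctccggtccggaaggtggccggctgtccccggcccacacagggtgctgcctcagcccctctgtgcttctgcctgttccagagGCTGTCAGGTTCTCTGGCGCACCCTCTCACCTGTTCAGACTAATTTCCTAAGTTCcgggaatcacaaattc
In *Shank3*, a peak of Snord116del NSC lay over a coding exon that also carried a peak of WT *116HG* replicate 1. The overlap is shown on the plus strand, which is also the strand of the gene, with CG dinucleotides in capitals (18 in 189 bases).
*Shank3*, chr15:89388360-89388548: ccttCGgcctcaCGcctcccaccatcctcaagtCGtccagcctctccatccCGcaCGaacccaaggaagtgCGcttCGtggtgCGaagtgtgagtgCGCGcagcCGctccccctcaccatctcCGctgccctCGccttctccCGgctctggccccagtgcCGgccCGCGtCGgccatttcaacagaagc

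*Nrxn2* (chr19:6418731-6544169, plus strand) was the most highly expressed of the 8 genes in 3 of the 4 groups. Its FPKM was 27.3 (WT) and 36.4 (Snord116del) at Zt +6, and 34.2 (WT) and 47.1 (Snord116del) at Zt +16. Relative to its lowest value, this was the narrowest range of the 8 genes. *Nrxn3* (chr12:89961320-91573375, plus strand), which covers 1612 kb and is longer than all but a few of the genes compared (99.9th percentile), had an FPKM of 9.63 (WT) and 29.0 (Snord116del) at Zt +6, and 7.33 (WT) and 8.61 (Snord116del) at Zt +16. It stood apart in the Snord116del Zt +6 group, while the other 3 groups lay within 7.33 to 9.63.

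*Nlgn1* (chr3:25330733-26032656, minus strand), whose protein is found mainly at excitatory synapses, had the lowest level of the 8 genes in every group. Its FPKM was 2.10 (WT) and 9.66 (Snord116del) at Zt +6, and 0.742 (WT) and 1.05 (Snord116del) at Zt +16. *Nlgn2* (chr11:69636624-69651286, minus strand), the neuroligin of inhibitory synapses, had 5.05 and 17.6 at Zt +6, and 2.05 and 2.74 at Zt +16, in the same order of genotypes. *Nlgn3* (chrX:98491178-98521302, plus strand), which is X-linked and found at both kinds of synapse, had 4.45 and 16.5 at Zt +6, and 1.22 and 1.68 at Zt +16. In all 3 neuroligins the Snord116del Zt +6 group was highest and the WT Zt +16 group lowest.

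*Shank1* (chr7:51565623-51613721, plus strand) had an FPKM of 17.4 (WT) and 65.6 (Snord116del) at Zt +6, and 6.12 and 6.85 at Zt +16. In the Snord116del Zt +6 group it passed *Nrxn2* and was the highest of the 8 genes. *Shank2* (chr7:151187833-151610399, plus strand) had 5.67 and 18.0 at Zt +6, and 3.22 and 3.33 at Zt +16. *Shank3* (chr15:89330054-89390692, plus strand), the gene lost in most people with Phelan-McDermid syndrome, had 4.64 and 17.3 at Zt +6, and 1.55 and 2.13 at Zt +16. The Shank genes thus showed the same order of the 4 groups as the neuroligins.

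**Figure D1:**
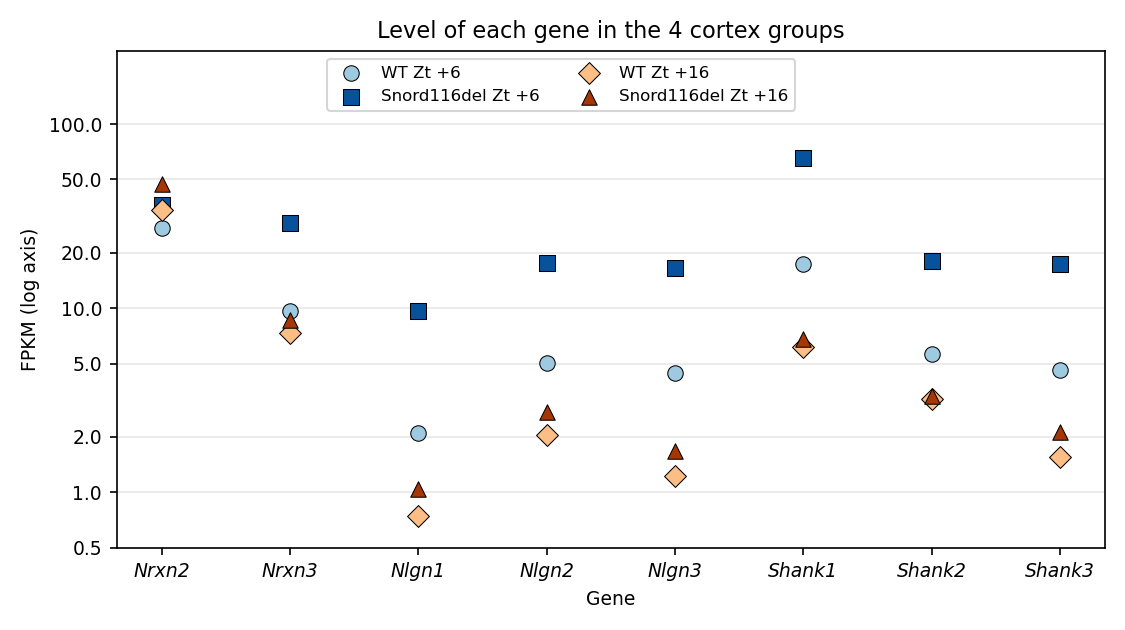
FPKM (log axis) of each of the 8 genes in the 4 cortex groups, 1 point per group and no error bars, because the table holds 1 value per group. For 7 genes the Snord116del Zt +6 group is highest and the Zt +16 groups are lowest, while the 4 values of *Nrxn2* lie between 27.3 and 47.1.

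Over the 4 groups, the order of the 8 genes by FPKM changed only near its top. *Nrxn2*, *Shank1*, *Nrxn3*, *Shank2*, *Nlgn2*, *Shank3*, *Nlgn3* and *Nlgn1* followed each other from high to low in WT at Zt +6. In Snord116del at Zt +6, *Shank1* moved above *Nrxn2*, and at Zt +16 *Nrxn3* moved above *Shank1* in both genotypes. *Shank2*, *Nlgn2*, *Shank3* and *Nlgn3* were close neighbours at Zt +6, each 1.02 to 1.12 times the next in both genotypes. With no spread over mice, whether such neighbours differ cannot be said. Over all genes compared, *Nrxn2* lay at the 91.4th to 93.1st percentile of FPKM in every group, and *Nlgn1* between the 10.6th in WT at Zt +16 and the 68.7th in Snord116del at Zt +6.

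The comparison of Snord116del with WT at Zt +6 asks how the deletion goes with expression in the light phase. Of the 8 genes, 7 were higher in Snord116del past 1.5-fold, beside 49.3% of all genes compared, and 0 were lower, beside 7.62%. The log2 fold change of FPKM + 1 was 1.86 for *Shank1*, 1.78 for *Nlgn1*, 1.70 for *Shank3*, 1.68 for *Nlgn3*, 1.62 for *Nlgn2*, 1.51 for *Shank2* and 1.49 for *Nrxn3*. As plain FPKM these 7 genes were 3.01 to 4.61 times as high. *Nrxn2* differed by 0.40, which does not reach the 1.5-fold rule, and by -0.40 when every group was scaled to the same median. For *Nrxn2* in the light phase, the deposited comparison columns, which were not used, do not follow from its FPKM values. The reason is not given, so its place as the exception rests on FPKM values that carry this doubt. The median over the 8 genes was 1.65 and over all genes compared 0.57. Scaling every group to the same median turned the split over all genes to 15.0% higher and 24.4% lower, with 7 of the 8 genes still higher. The 7 genes lay at the 93.6th to 98.9th percentile of all changes, and *Nrxn2* at the 40.8th.

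The change differed by transcript length. The longest annotated transcripts of the 8 genes measure 4359 to 8988 bases, at the 72.9th to the 97.0th percentile of all genes compared. Among the 1265 genes with a transcript of 6 kb or more, 91.1% were higher in Snord116del at Zt +6 and the median log2 change was 1.23. Among the 1650 genes under 1.5 kb, 11.5% were higher and 31.5% lower, with a median of -0.26. With the trend on length removed, 3 of the 8 genes stayed past the fold: *Nlgn1* at 0.95, *Shank1* at 0.68 and *Nlgn2* at 0.61. *Shank3* (0.53), *Nlgn3* (0.44), *Nrxn3* (0.29) and *Shank2* (0.25) were above 0 but short of the fold, and *Nrxn2* was lower at -0.71. *Nlgn1* has the shortest transcript of the 8 and one of the largest changes. What part transcript length or RNA quality had in the values was not tested.

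At Zt +16, in the dark phase, 0 of the 8 genes passed 1.5-fold between the genotypes, beside 19.2% of all genes (19.0% higher and 0.204% lower in Snord116del). The log2 changes ran from 0.04 for *Shank2* and 0.14 for *Shank1* to 0.45 for *Nrxn2*, with a median of 0.25 against 0.35 over all genes. All 8 values were above 0 on the deposited scale, but all 8 were below 0, at -0.07 to -0.44, when every group was scaled to the same total. Over all genes that scaling turned the split to 0.311% higher and 0.991% lower. Scaled to the same median, *Nlgn1* was at 0.01, *Shank3* at -0.00 after rounding, and the other 6 were below 0. By quantiles, 6 of the 8 values were below 0. On the deposited scale of FPKM + 1 *Nrxn2* had the largest of the 8 changes here and the smallest at Zt +6, but as plain FPKM *Nlgn1* had a larger ratio at Zt +16 (1.41 against 1.38), and at the same total the change of *Shank2* (-0.44) was farther from 0 than that of *Nrxn2* (-0.19). Among genes of 6 kb or more, 3.08% were higher at Zt +16 and the median was 0.22, close to the members' median.

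**Figure D2:**
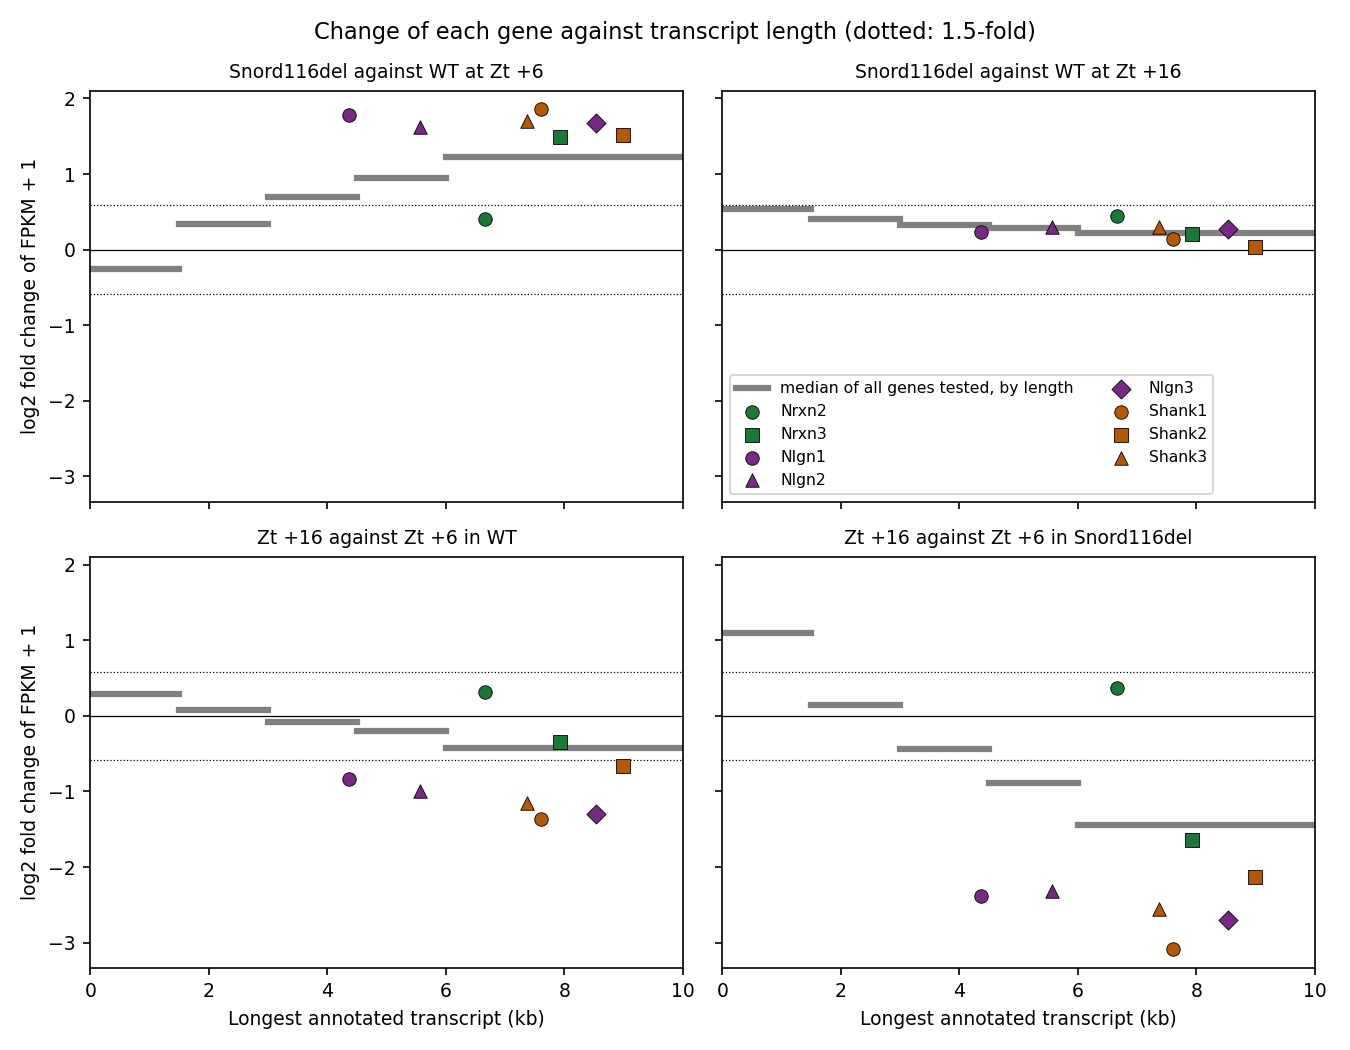
Log2 fold change of FPKM + 1 for the 8 genes against the length of their longest transcript (kb), in 4 comparisons, with grey bars for the median of all genes compared in each length class and dotted lines at 1.5-fold. At Zt +6 the grey bars climb from -0.26 to 1.23 with length, 7 genes lie above the bar of their class, and *Nrxn2* lies below it.

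The 2 times of day can also be set against each other within a genotype, with the limit that a shared normalisation is not stated. In WT, 6 of the 8 genes were lower at Zt +16 than at Zt +6 past 1.5-fold, beside 10.3% of all genes, and 0 were higher, beside 5.71%: *Shank1* by a log2 change of -1.37, *Nlgn3* by -1.29, *Shank3* by -1.15, *Nlgn2* by -0.99, *Nlgn1* by -0.83 and *Shank2* by -0.66. The neurexins did not pass, with *Nrxn3* at -0.35 and *Nrxn2* at 0.31. When every group was scaled to the same total, *Nrxn2* turned to -0.11 and *Nrxn3* passed the fold at -0.76, so that 7 genes were lower. At the same median *Shank2* did not pass, at -0.58, and 5 genes were lower. Over all genes, scaling to the same total gave 0.505% higher and 29.0% lower. As plain FPKM the 6 genes were 1.76 to 3.64 times as high at Zt +6. With the length trend removed, 5 of them stayed lower and *Shank2* was at -0.20, *Nrxn3* at 0.05 and *Nrxn2* higher at 0.65. Of the genes with transcripts of 6 kb or more, 29.4% were lower in WT at Zt +16.

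In Snord116del, 7 of the 8 genes were lower at Zt +16 than at Zt +6, beside 39.1% of all genes and 85.1% of the genes of 6 kb or more. Their log2 changes ran from -3.09 for *Shank1* to -1.64 for *Nrxn3*, or 9.58 and 3.36 times as high at Zt +6 as plain FPKM. *Nrxn2* was at 0.36, at 0.84 when every group was scaled to the same median, and at -0.71 when every group was scaled to the same total. The split over all genes, 39.1% lower and 25% higher on the deposited scale, was 26.5% and 35.0% at the same median and 66.6% and 8.31% at the same total. With the length trend removed 6 genes were lower in Snord116del, since *Nrxn3* no longer passed at -0.25, while *Shank2* was at -0.62 and *Nrxn2* was higher at 1.57. Each of the 7 genes had a larger difference between the times in Snord116del than in WT. The difference of the genotype change between the times (Zt +16 minus Zt +6) was -1.72 for *Shank1*, between -1.29 and -1.55 for the other 6, and 0.05 for *Nrxn2*, beside a median of -0.22 over all genes. Among genes of 6 kb or more, the median genotype change was 1.23 at Zt +6 and 0.22 at Zt +16. The difference for each gene rests on single values of all 4 groups, was not tested, and shares its groups with the comparisons before it.

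Shares within a family do not depend on the scale of a group. *Nrxn2* made up 73.9% of the summed FPKM of the 2 neurexins in WT at Zt +6, 82.4% (WT) and 84.5% (Snord116del) at Zt +16, and 55.7% in Snord116del at Zt +6. The ratio of *Nrxn2* to *Nrxn3* was thus 2.84, 4.67 and 5.47 in WT at Zt +6, WT at Zt +16 and Snord116del at Zt +16, and 1.26 in Snord116del at Zt +6. The neuroligins and Shanks kept a steadier make-up. *Nlgn1* held 18.1% to 22.1% of the neuroligin sum in all 4 groups, and *Shank3* held 14.2% to 17.3% of the Shank sum. *Shank1* held 62.8% and 65.0% at Zt +6 and 56.2% and 55.6% at Zt +16, in the order WT and Snord116del. *Nlgn3* was below *Nlgn2* in every group, by a wider margin at Zt +16, with 30.4% and 30.7% of the sum against 38.4% and 37.6% at Zt +6. The shares of *Nlgn2*, *Nlgn3*, *Shank1* and *Shank2* differed more between the times than between the genotypes, whereas that of *Nlgn1* was highest, and that of *Nrxn2* lowest, in Snord116del at Zt +6.

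**Figure D3:**
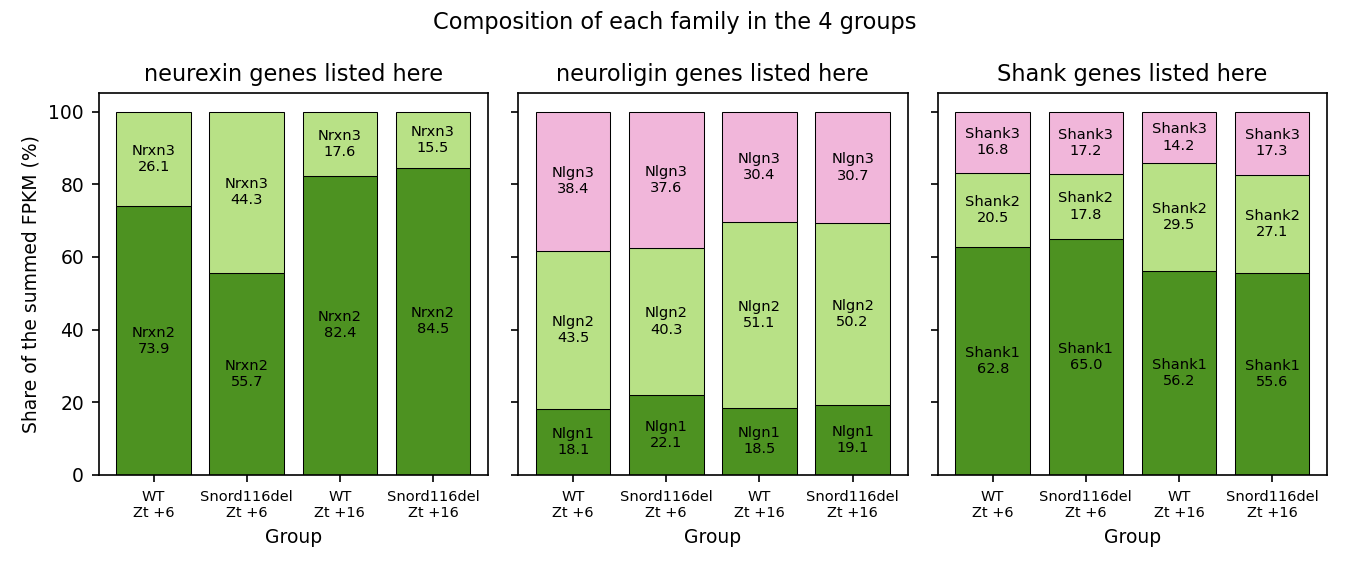
Share of the summed FPKM (%) that each gene contributes within its family in the 4 groups, as stacked bars from 0 to 100 with no error bars. The share of *Nrxn2* is 55.7% in Snord116del at Zt +6 and 73.9% or more in the other groups, while *Shank1* stays between 55.6% and 65.0%.

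Other genes of the synapse were described in 3 lists drawn up from their known roles. At Zt +6, 24 of the 29 other trans-synaptic adhesion genes that were compared were higher in Snord116del and 0 lower, with a median log2 change of 1.23. Of the 16 presynaptic scaffold genes 13 were higher and 1 lower (median 1.30), and of the 25 postsynaptic scaffold genes 20 were higher and 0 lower (median 1.13). Together 57 of 70 were higher, with a median of 1.24, beside 49.3% of all genes and the median of 1.23 of all genes of 6 kb or more. At Zt +16, 12 of the 70 were higher, a share near the 19.0% of all genes. *Ptprd*, a receptor phosphatase of the presynaptic membrane, was at 8.08 FPKM (WT) and 35.7 (Snord116del) at Zt +6, a log2 change of 2.02. *Cadm2*, a synaptic adhesion gene, was at 3.61 and 15.5 (1.84). Among presynaptic scaffolds, *Pclo*, which encodes Piccolo, was at 7.89 and 28.2 (1.71) and *Rims1*, which organises vesicle release sites, at 9.26 and 32.3 (1.70). *Lin7b*, which belongs to the complex of *Cask* that binds neurexins, was lower in Snord116del, at 63.2 and 29.2 (-1.09). *Homer1*, whose protein binds Shank proteins directly, had the largest change of the lists, at 11.3 FPKM (WT) and 53.5 (Snord116del) (2.15), and *Cnksr2*, a postsynaptic scaffold, was at 9.75 and 37.5 (1.84). At Zt +16 *Homer1* was at 3.49 and 4.86 FPKM (log2 change 0.39).

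Many other genes had a profile over the 4 groups that was close to the mean profile of the 8 genes. Likeness was taken as the Euclidean distance between log2(FPKM + 1) profiles, each centred on its own mean over the 4 groups. The 5 genes nearest to the mean profile of the 8 were *Gpatch8*, *Vps13a*, *Srebf2*, *Jakmip2* and *Ate1*, at distances of 0.036 to 0.043. In all, 1043 other genes, among the 10297 compared, were at least as near to it as the median member. *Nrxn2* itself lay at 1.93 from this mean and the other members at 0.146 (*Shank2*) to 0.844 (*Shank1*), so the mean does not describe *Nrxn2*. The gene nearest to each member was *Ttll11* for *Nrxn2*, *Fam126b* for *Nrxn3*, *Strbp* for *Nlgn1*, *Stox2* for *Nlgn2*, *4930402H24Rik* for *Nlgn3*, *6430704M03Rik* for *Shank1*, *Lyst* for *Shank2* and *AI593442* for *Shank3*, at distances of 0.015 to 0.054. With 4 values per gene this is a description only.

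Markers of other cell types moved as well. The 7 neuron markers, which include *Slc17a7* and *Gad1*, summed to 694 FPKM (WT) and 963 (Snord116del) at Zt +6, and to 570 and 780 at Zt +16, and 0 of them were under 1 FPKM in all groups. The 6 astrocyte markers were all higher in Snord116del at Zt +6, with sums of 98.2 and 305 FPKM, and 53.5 and 78.9 at Zt +16. The endothelial markers summed to 5.27 and 18.6 at Zt +6 and to 2.53 and 3.22 at Zt +16. Over the 5 cortical layer markers the sums were 24.5, 53.3, 20.2 and 27.6 in the same order, over the 6 oligodendrocyte markers 445, 703, 718 and 1036, over the 6 microglial markers 62.4, 84.8, 71.2 and 134, over the striatal markers 19.4, 38.8, 20.9 and 39.3, and over the cerebellar markers 7.21, 16.0, 8.45 and 12.5. Of the 4 choroid plexus markers 3 were under 1 FPKM in all groups, and the list summed to 202, 184, 25.5 and 30.2. The part of tissue make-up in the members' values was not tested, and fewer cells of a type cannot be told apart from less RNA per cell.

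ChIRP peaks were counted at a gene when they lay within it or up to 2 kb from it. The peak list of WT *116HG* replicate 1 is by far the largest: 222 of its 78033 peaks lay at the 8 genes (0.284%, exact 95% interval 0.248 to 0.324, which covers counting error only). All 8 genes had at least 1 peak, as did 93.6% of all genes compared. Of the 222 peaks 135 (60.8%) had their middle in an exon, 89 of them in coding sequence, 78 in an intron and 9 beyond the gene's ends. Over the whole list 72.0% had their middle in an exon. The exonic peaks had a median fold over input of 71.8 and a median GC content of 55.2%, against 41.0 and 40.2% for those in introns. None of the exonic peaks and 14 of the intronic ones had a repeated middle. Of the 222 folds, 168 (75.7%) were whole multiples of 10.26 (within 0.1%), beside 69.0% over the whole list. At these genes the lowest multiple was 3 and the median 6, so the folds move in coarse steps. Just 7 of the 222 peaks touched another annotated gene, among them all 3 peaks upstream of *Nlgn2*, which lie in *1810027O10Rik*.

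The neurexins held these peaks in different numbers. In *Nrxn2* there were 18, all in exons, with folds of 27.9 to 308. The strongest (chr19:6531360-6532684) lay over a coding exon 113 kb from the gene's start. In *Nrxn3* there were 59, of which 29 lay in introns, with folds of 23.9 to 257. Peaks covered 61.3% of the longest *Nrxn2* transcript and touched 13 of its 23 exons, and covered 80.6% of that of *Nrxn3* and touched 16 of 20. Per exonic kb *Nrxn2* had 1.30 peaks and *Nrxn3* 4.67, against a median of 1.31 over all genes compared. Per kb of gene they had 0.1435 and 0.0366, against a median of 0.179.

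In the neuroligins the picture differed by gene. *Nlgn1* had 38 peaks, 30 of them in introns and between 4.60 and 522 kb from its start, and 8 over exons. *Nlgn2* had 20 and *Nlgn3* had 16, of which 3 and 0 were intronic. Peaks covered 49.2%, 75.4% and 67.9% of the longest transcripts of *Nlgn1*, *Nlgn2* and *Nlgn3*. *Nlgn1*, with 4359 exonic bases, had 8.72 peaks per exonic kb against a median of 1.31 over all genes compared, but 0.0541 per kb of gene against a median of 0.179. Its place among all genes thus depends on which length is used. The same holds for *Nrxn3* (95.3rd percentile per exonic kb and 15.4th per kb of gene) and *Shank2* (72.6th and 20.8th).

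*Shank1* had 35 peaks and the highest median fold of the 8 genes, 123. Its strongest peak (chr7:51611973-51614029), at a fold of 493, lay at the 3′ end of the gene and was also the strongest at any of the 8 genes. Peaks covered 94.1% of its longest transcript and touched 21 of its 25 exons. *Shank2* had 23 peaks and *Shank3* had 13, which covered 64.0% and 56.7% of their transcripts. Within 1 kb of the gene's start there was a peak in *Shank1* (fold 257), *Shank3* (44.9), *Nrxn3* (246), *Nlgn1* (56.7) and *Nlgn2* (4 peaks, 41.0 to 195), and none in *Nrxn2*, *Nlgn3* and *Shank2*. Over the 8 genes, the median fold in brain and the FPKM in WT cortex at Zt +6 had a Spearman's rho of 0.44 and a Pearson's r of 0.71. *Nrxn2* and *Shank1*, with the highest FPKM, also had the highest median folds. The other genes had median folds of 51.3 to 71.8. A link between level and fold was not tested.

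**Figure D4:**
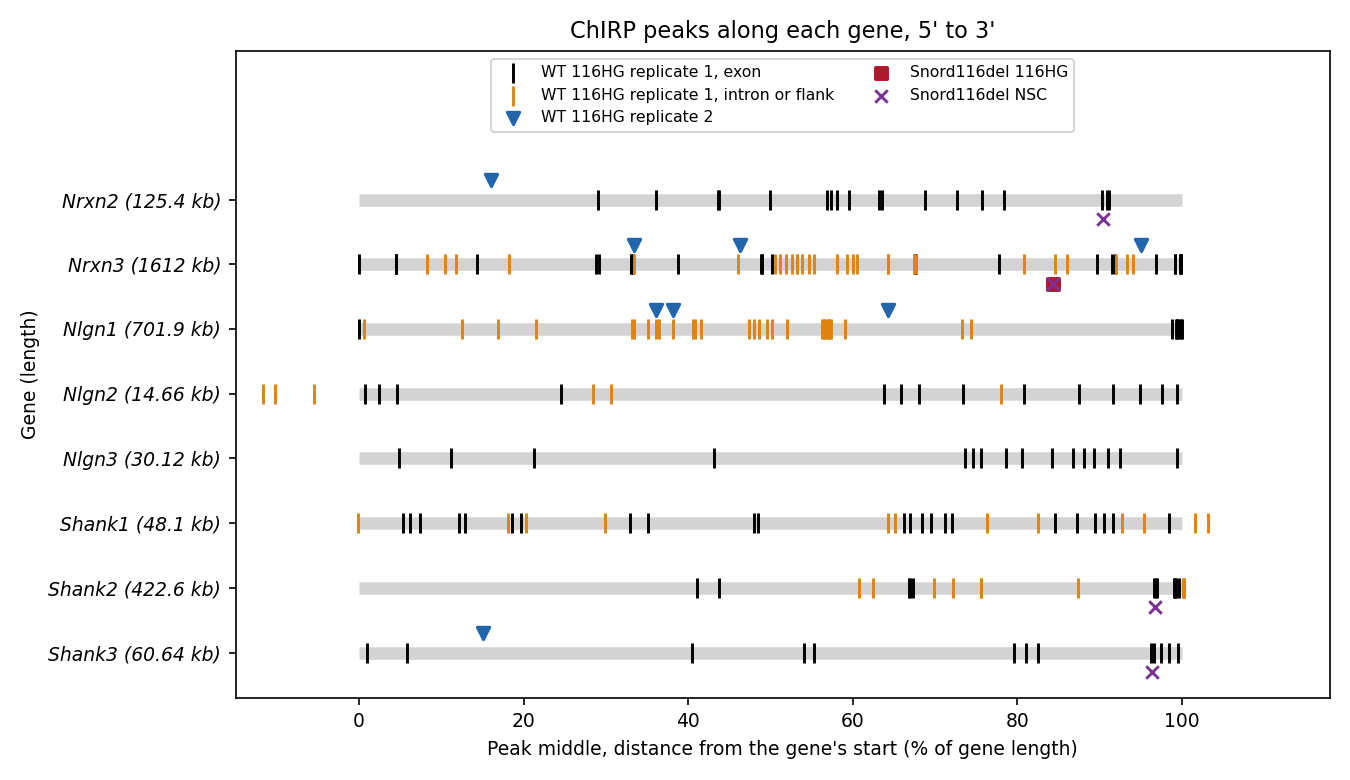
Position of each ChIRP peak's middle along the 8 genes, as a percentage of the gene's length from its 5′ end, with ticks for WT *116HG* replicate 1 (black in exons, orange in introns or flanks) and symbols for replicate 2 and the Snord116del lists. WT NSC had none. The peaks of replicate 1 bunch at exons in *Nrxn2*, *Nlgn3* and *Shank3* and spread through the introns of *Nlgn1* and *Nrxn3*, and the 8 peaks of replicate 2 lie inside 4 genes.

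Replicate 2 of WT *116HG* had 8 of its 11145 peaks at the 8 genes (0.0718%, exact interval 0.0310 to 0.141), whose sequences are printed above. They lay in 4 genes, *Nrxn3* and *Nlgn1* with 3 each and *Nrxn2* and *Shank3* with 1 each, beside 17.5% of all genes compared. Longer genes had such a peak more often: 71.3% of the 369 genes of 300 kb or more and 5.93% of those under 20 kb. *Nrxn3* and *Nlgn1* belong to the first class, as does *Shank2*, which had none. In replicate 1, 12 of the 222 peaks (5.41%) held a run of at least 15 A or T, against 11.0% over its whole list and 1.77% in windows 5 kb away.

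A peak of 1 WT *116HG* library counted as replicated if the other library had one no more than 10 kb away. At the 8 genes 11 peaks of replicate 1 were replicated, 5 in *Nrxn3*, 4 in *Nlgn1* and 2 in *Shank3*, so that 3 of 8 genes had one, beside 18.1% of all genes and 45.5% of the genes of 300 kb or more. Of the replicate 2 peaks 5 were replicated, in the same 3 genes, beside 12.6% of all genes. Peaks of the replicates overlapped directly at 3 places: in *Nlgn1* over 60 bases at chr3:25764580-25764639 and 56 bases at chr3:25779082-25779137, and in *Nrxn3* over 60 bases at chr12:90500009-90500068. A and T made up 93.3%, 96.4% and 86.7% of these overlaps, which hold the T and A runs shown in capitals. The replicate 1 peaks there had folds of 164, 106 and 71.8, and the fold of 164 was the highest of any peak in *Nlgn1*. In *Shank3* the nearest peaks of the replicates were 5425 bases apart.

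The control libraries had few peaks at these genes. None of the 3648 WT NSC peaks lay there (0 of 3648, exact interval 0 to 0.101%, or up to 0.0822% by a floor of 3 counts), beside 2.53% of all genes with a peak in that list. Snord116del *116HG* had 1 of 1280 (0.0781%, exact interval 0.00198 to 0.434), in *Nrxn3*, beside 2.86% of all genes. Snord116del NSC had 4 of 3418 (0.117%, 0.0319 to 0.299), 1 each in *Nrxn2*, *Nrxn3*, *Shank2* and *Shank3*, beside 10.6%. Of the genes of 300 kb or more, which include *Nrxn3*, *Nlgn1* and *Shank2*, 18.4% had a peak of Snord116del *116HG* and 35.0% of Snord116del NSC. The *Nrxn3* peaks of both Snord116del libraries are the same place, the intron repeat printed above, with folds of 30.4 and 36.8. The other 3 Snord116del NSC peaks, with folds of 20.8 in *Nrxn2*, 22.8 in *Shank2* and 21.0 in *Shank3*, each had its middle in an exon, had a GC content of 60.9% to 65.3%, and overlapped peaks of WT *116HG* replicate 1. The overlapping replicate 1 peaks had a fold of 308 in *Nrxn2*, 103 and 267 in *Shank2*, and 71.8 and 30.8 in *Shank3*. The intervals of the shares of replicate 2, Snord116del *116HG* and Snord116del NSC overlap each other. That of replicate 1 (0.248 to 0.324) also overlaps those of both Snord116del libraries, and lies above those of replicate 2 and WT NSC.

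The peaks can also be set beside the genotype changes. The genes with a replicated peak, *Nrxn3*, *Nlgn1* and *Shank3*, had log2 changes at Zt +6 of 1.49, 1.78 and 1.70, within the range of 1.51 to 1.86 of *Nlgn2*, *Nlgn3*, *Shank1* and *Shank2* or just under it. *Nrxn2*, the gene that did not pass the fold, had 18 peaks in replicate 1 and 1 in replicate 2, as many or more than *Nlgn3* and *Shank3*, which passed it.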

How the data were processed

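The 8 genes and the gene lists were chosen with earlier results of these data known. The authors aligned RNA-seq reads to mm9 with TopHat2 2.0.5 and deposited Cuffdiff 2.0.2 FPKM, with 1 value for each gene in a group. Columns with the authors' own comparisons of the genotypes at each time (log2 fold changes, q-values and calls) were left out. For ChIRP, the authors aligned reads with Bowtie2 2.0.0, called peaks per library against input with MACS 1.4.2, and deposited positions and, except in WT *116HG* replicate 2, the fold over input, a ratio. Depth cannot be read from FPKM or peak lists, but the paper gives the reads of each library. By its figures, a smaller part of the reads aligned in WT *116HG* replicate 2 than in any other ChIRP library. The input library gave no list.

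Values per mouse would have been tested with limma, but the table holds group values, so the fold rule (1.5-fold on FPKM + 1, with at least 1 FPKM in the higher group) was used over 10297 genes, those whose group values averaged 1 FPKM or more. Symbols were matched to the GENCODE annotation of NCBIM37 for 98.7% of these. Whether the authors' counting used strand is not given in the sources used here, so genes overlapped by an annotated antisense gene (*Nrxn2*, *Shank2*, *Shank3*) may share reads with it, and *Nlgn3* overlaps *Med12* on the same strand. The genes named from the lists are the 2 largest rises and falls at Zt +6 past the fold in each, and *1810027O10Rik* and *Ipw* were named after their values were seen. The 2 WT *116HG* libraries and the mice are labelled as separate samples. Steps were tested on simulated data. Python 3.11.15 (numpy 2.4.6, pandas 2.3.3, statsmodels 0.14.6) and samtools 1.23.1 were used. Alternatives were the pseudocount, the filter, 3 scalings, removal of a lowess trend on transcript length, the fold, and the distances and thresholds for peaks.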

Additional observations from a re-analysis of the deposited data

How the results depend on the processing

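No paired analysis was possible because the RNA-seq table holds 1 value per group, so neither a replicate block nor leaving out single mice could be run. The counts of genes past the fold kept within 1.5 times their value under another pseudocount, without the filter on low values and under quantile normalization, and at 2-fold except in WT over time, where 3 genes in place of 6 were lower. With the length trend removed, 3 of the 8 genes were higher and 1 (*Nrxn2*, at -0.71) lower in Snord116del at Zt +6, and 1 (*Nrxn2*) was higher at Zt +16 than at Zt +6 in each genotype. The genotype change was then smaller at Zt +16 by 1.5-fold in 3 genes in place of 7. When every group was scaled to the same median, 1 gene (*Nrxn2*) was higher over time in Snord116del, and when scaled to the same total *Nrxn2* was at -0.71 there. Such scaling moved the median of all genes at Zt +6 by -0.63 (same median) and at Zt +16 by -0.46 (same total). Of the 224 changes of single genes under the alternatives, 10 no longer passed the fold, 4 newly passed it and 2, both in *Nrxn2*, passed it in the opposite direction. Whether past the fold or not, 30 had another sign than on the deposited scale, 24 of them at Zt +16, where 0 of the 8 genes passed. Signs were counted on values rounded to 2 decimals, so *Shank3* at Zt +16 at the same median (-0.00) is not among them.

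With peaks in the upper quartile of the fold over input, 70 peaks of replicate 1 and 1 of Snord116del NSC (in 1 gene) remained at the 8 genes. Replicated peaks of replicate 1 numbered 3 by direct overlap, 4 within 2 kb, 62 (in 5 genes) within 50 kb and 2 (in 1 gene) in the upper quartile, and those of replicate 2 numbered 3, 3, 8 and 2 (in 1 gene). Without replicate 2 all 222 peaks in 8 genes count, and without replicate 1 all 8 peaks in 4 genes. Counting peaks in the gene body or within 10 kb moved no count by over 1.5 times. The cause was not tested.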
